A study of Mus musculus with 24 samples.

Results

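The genes described here are Trp53, which encodes the tumour suppressor p53, and 8 genes of the damage response that p53 directs: Mdm2, Cdkn1a, Ccng1, Gadd45a, Phlda3, Bbc3, Pmaip1 and Trp53inp1. They were taken as every probe that the array's own gene column assigns to one of these 9 symbols, which gave 21 of 25697 probes for the 9 genes. The samples were CD4+ T cells of mice aged 4 to 6 weeks, either wild type (WT) or lacking BAF180, the Pbrm1 gene product and a subunit of the PBAF form of the SWI/SNF chromatin remodeling enzyme. BAF180 fl/fl mice carry loxP sites around exon 11 of the gene, and a Cre transgene driven by the CD4 promoter deletes it late in thymic development. The labels name the strain Balb/c, whereas the study's methods describe a mixed genetic background before that cross.

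Each genotype was measured in 4 cell states with 3 arrays each (replicates A, B and C), 24 arrays in all. Resting Naive cells were CD4+CD62L+ cells from spleen and lymph nodes, isolated to 95% purity. Stimulated Naive cells had been on plates coated with anti-CD3 (1 µg/ml) and anti-CD28 (2 µg/ml) for 24 h. Resting Th2 cells came from naive cells plated on the same antibodies with IL-4 (10 ng/ml) and anti-IFN-γ (10 µg/ml), with IL-2 (100 U/ml) added after 24 h. Stimulated Th2 cells were such cells treated with PMA (50 ng/ml) and ionomycin (500 ng/ml) for 1.5 h. Levels are log2 intensities after background correction and quantile normalization, with an offset of 16 added before the log, so a difference at a low level is compressed. The number of probes detected per array was between 8047 and 10689, and Pbrm1 itself was lower in the BAF180-deficient arrays, with differences of -1.01 to -1.86 log2 units and no overlap in any of the 4 states. All 6 CD4+ T cell markers were detected on every array.

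p53 is held at a low level in unstressed cells by the ubiquitin ligase MDM2 and accumulates after DNA damage or other stress. It then activates genes that stop the cell cycle, repair DNA, restrain survival signals or trigger apoptosis, and Mdm2 is among its targets, which closes a feedback loop. Several of these genes are also controlled without p53: in T cells, signals from the antigen receptor and from cytokines act on p21, the product of Cdkn1a, and on the pro-apoptotic BH3-only proteins. BAF180 has been described as an activator of p21 in other cells, whereas the study proposes that in T cells it represses cell cycle inhibitor genes, p21 among them. The question here was whether the genes described here differed between the genotypes, and how they varied over the 4 cell states.

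Of the 21 probes, 20 were detected on at least 1 array and entered the test, and every member kept at least 1 probe. The remaining probe, 1 of 3 for Mdm2, was detected on none of the 24 arrays. The second probe of Pmaip1 was detected on 4 arrays and passed in no comparison between states. Each gene is described by its brightest probe. The other probes are given where they differ and are named by their first base in the transcript. A detected probe is one with a detection p of at most 0.02.

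**Figure D1:**
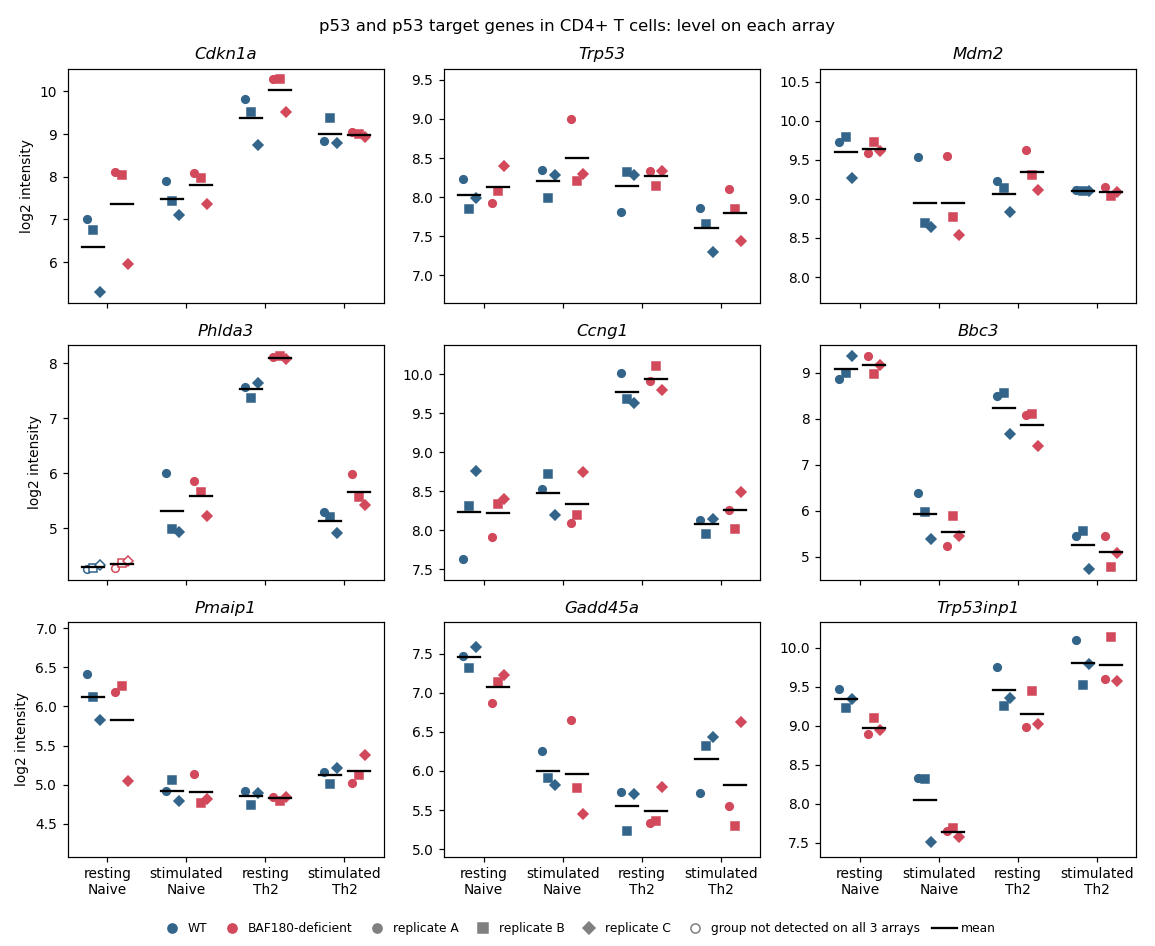
Level (log2 intensity, y axes each spanning at least 3 units) of the 9 genes on every array, by cell state (x axis) and genotype (blue WT, red BAF180-deficient). Symbols mark replicates A, B and C, bars the mean of 3 arrays, and open symbols the groups where the probe was not detected. Cdkn1a, Phlda3 and Ccng1 stood highest in resting Th2 cells, and Bbc3, Pmaip1 and Gadd45a in resting Naive cells.

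Resting Th2 cells were set against resting Naive cells, the kind of cell that the Th2 cultures began with. In WT cells 3 members rose (Cdkn1a, Phlda3 and Ccng1) and 3 fell (Gadd45a, Pmaip1 and Bbc3), while Trp53, Mdm2 and Trp53inp1 did not pass the test. The same 6 genes passed in the same directions in BAF180-deficient cells. Over all 10418 genes tested, 35.5% passed in WT cells (17.9% higher, 17.6% lower) and 35.7% in BAF180-deficient cells (18.2% higher, 17.5% lower) at an adjusted p below 0.05 (limma). The median difference of the 9 members in WT cells was 0.11, against 0.0020 over all genes.

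Cdkn1a encodes p21, the inhibitor of cyclin-dependent kinases through which p53 arrests the cell cycle. On the WT arrays A, B and C its level was 7.02, 6.75 and 5.30 in resting Naive cells. In WT resting Th2 cells it was 9.82, 9.53 and 8.75, so that every Th2 array lay above every Naive array. The difference was 3.01 log2 units (SE 0.47, n = 3 per group), or 8.06-fold, with an adjusted p of 4.46e-05 (limma). In BAF180-deficient cells the level went from 8.11, 8.04 and 5.96 to 10.28, 10.28 and 9.52, a difference of 2.66 (adjusted p = 0.000177, limma). Both other Cdkn1a probes rose in both genotypes.

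Phlda3 encodes a pleckstrin homology domain protein that competes with the survival kinase Akt for membrane lipid. It was not detected on any of the 6 resting Naive arrays, where its signal lay between 4.26 and 4.4. In WT resting Th2 cells it reached 7.57, 7.37 and 7.64, and in BAF180-deficient cells 8.11, 8.13 and 8.08. Against the lowest signal that counted as detected on the Naive arrays, the rise was at least 6.36-fold in WT (adjusted p = 4.73e-10, limma) and at least 9.81-fold in BAF180-deficient cells (adjusted p = 5.04e-11, limma). Its second probe, at base 911, rose as well.

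Ccng1 encodes cyclin G1, which recruits phosphatase 2A to MDM2. Its level was 7.63, 8.31 and 8.76 in WT resting Naive cells. In WT resting Th2 cells it was 10.01, 9.68 and 9.64, all above the Naive arrays. The difference was 1.54 (SE 0.23, adjusted p = 2.9e-05, limma) in WT and 1.72 (adjusted p = 8.17e-06, limma) in BAF180-deficient cells, and all 3 of its probes rose in both genotypes.

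Gadd45a encodes a stress sensor that binds PCNA and takes part in growth arrest and DNA repair, and unlike the 3 genes above it fell. In WT cells its level was 7.47, 7.32 and 7.58 at rest in Naive cells and 5.73, 5.23 and 5.70 in resting Th2 cells, a difference of -1.90 (SE 0.30, adjusted p = 5.34e-05, limma). Its second probe, at base 739, fell too. Among the apoptosis genes, Pmaip1, which encodes the BH3-only protein NOXA, went from 6.41, 6.13 and 5.83 to 4.92, 4.74 and 4.89, a difference of -1.27 (adjusted p = 0.000161, limma). Bbc3, which encodes the BH3-only protein PUMA, went from 8.87, 9.01 and 9.37 to 8.50, 8.55 and 7.66. That difference of -0.84 (SE 0.29) had an adjusted p of 0.0292 (limma), and the call was lost without resting Naive WT replicate B or C or without resting Th2 WT replicate C (adjusted p between 0.0518 and 0.179). In BAF180-deficient cells Bbc3 fell by 1.31 (adjusted p = 0.00149, limma).

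Trp53 lay between 7.81 and 8.32 on the WT resting Th2 arrays and between 7.85 and 8.24 on the WT resting Naive arrays, and these ranges overlapped almost fully. Mdm2 was 9.73, 9.80 and 9.27 in WT resting Naive cells and 9.23, 9.13 and 8.83 in resting Th2 cells, and although the groups did not overlap, the difference of -0.53 had an adjusted p of 0.0861 (limma). The fit with the replicate letter as a block gave it an adjusted p of 0.0312, and leaving out resting Naive WT replicate C gave 0.0391. The probes of Trp53inp1, which encodes a nuclear stress protein that promotes p53 phosphorylation, disagreed. The brightest probe differed by 0.11 in WT cells (adjusted p = 0.738, limma), whereas the probe at base 5108 rose by 1.39 (adjusted p = 5.56e-05, limma), from 6.56, 6.61 and 6.12 to 8.10, 7.54 and 7.82. The annotation used here does not say which transcripts each of them reads.

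Promoter sequences are shown for the 3 genes that rose together and for Gadd45a, which fell, because they belong to genes called p53 targets that moved in opposite directions between the same cells. Each is the 250 bases before a RefSeq transcription start (GRCm38.p6), 5′ to 3′ on the gene's strand. Capitals mark matches to the 10-base unit of the p53 consensus, which reads the same on both strands. A full p53 consensus site holds 2 such units, and full sites were not searched for. The Cdkn1a window is at chr17:29090729-29090978 (plus strand), Ccng1 at chr11:40755287-40755536 (minus strand), Phlda3 at chr1:135765835-135766084 (plus strand) and Gadd45a at chr6:67037408-67037657 (minus strand).
Cdkn1a: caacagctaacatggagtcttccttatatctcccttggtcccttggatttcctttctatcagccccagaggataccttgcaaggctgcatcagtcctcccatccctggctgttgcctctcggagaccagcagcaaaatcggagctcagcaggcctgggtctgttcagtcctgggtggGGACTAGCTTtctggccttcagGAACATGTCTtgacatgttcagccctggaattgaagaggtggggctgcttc
Ccng1: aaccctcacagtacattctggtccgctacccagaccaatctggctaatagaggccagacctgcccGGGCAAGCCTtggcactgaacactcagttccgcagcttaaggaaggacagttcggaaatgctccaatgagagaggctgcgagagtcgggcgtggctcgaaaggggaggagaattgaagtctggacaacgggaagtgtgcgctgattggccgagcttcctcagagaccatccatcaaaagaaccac
Phlda3: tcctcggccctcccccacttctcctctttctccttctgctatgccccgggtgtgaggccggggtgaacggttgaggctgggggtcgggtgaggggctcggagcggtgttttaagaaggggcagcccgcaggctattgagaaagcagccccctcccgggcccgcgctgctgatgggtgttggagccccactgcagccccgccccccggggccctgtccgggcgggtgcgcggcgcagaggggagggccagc
Gadd45a: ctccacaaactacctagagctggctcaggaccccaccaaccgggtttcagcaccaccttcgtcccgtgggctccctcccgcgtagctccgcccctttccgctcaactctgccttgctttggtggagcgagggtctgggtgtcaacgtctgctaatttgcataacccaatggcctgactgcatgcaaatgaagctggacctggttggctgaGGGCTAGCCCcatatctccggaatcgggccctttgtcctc
The Cdkn1a window held 2 matches, which begin at bases -73 and -51 from the start, and a second, downstream Cdkn1a start had 0. Ccng1 had 1 match, at base -185, Gadd45a had 1, at base -40, and Phlda3 had 0 in this window. Trp53 and Mdm2 also had 1 each and the 3 starts of Bbc3 had 0, so that 5 of the 7 members with a promoter sequence held a match. Of all 27025 genes with such windows, 8.2% held one. Counted by window, it was 5 of 10 for the members and 7.13% of all 32851. The match was therefore present in genes that rose, in a gene that fell and in genes that did not pass, and its absence says only that these letters are not in the window.

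**Figure D2:**
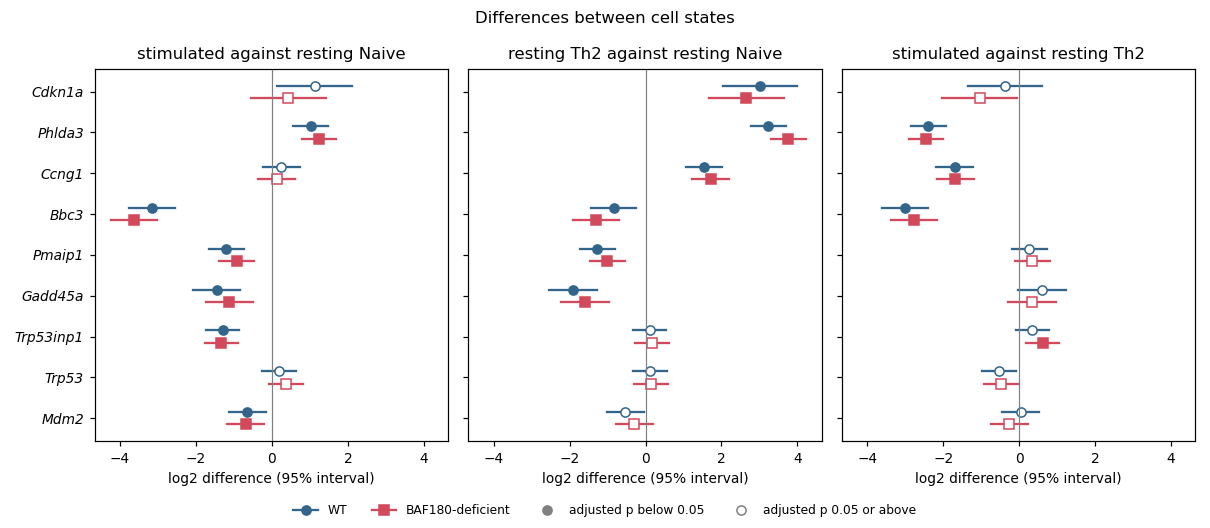
Difference in log2 intensity (x axis, with 95% confidence intervals from limma) of the 9 genes between cell states, in WT (circles) and BAF180-deficient cells (squares); filled symbols have an adjusted p below 0.05. Bbc3 lay below 0 in all 3 comparisons, and Phlda3 lay above 0 in the comparisons with resting Naive cells and below it after stimulation of Th2 cells.

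Stimulation of Naive cells for 24 h was the next comparison. In WT cells 1 member rose (Phlda3) and 5 fell (Bbc3, Gadd45a, Trp53inp1, Pmaip1 and Mdm2), against 45.2% of all genes that passed, 23.3% higher and 21.9% lower. The same 6 passed in BAF180-deficient cells, where 43.4% of all genes did (22.1% higher, 21.3% lower). The members' median difference in WT cells was -0.65, against -0.012 over all genes. This comparison and that of resting Th2 cells share the resting Naive arrays.

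Bbc3 had the largest difference of the 9. Its WT level went from 8.87, 9.01 and 9.37 to 6.40, 5.98 and 5.39, and its BAF180-deficient level from 9.37, 8.98 and 9.17 to 5.24, 5.89 and 5.45. Every stimulated array lay below every resting one. Bbc3 fell by 3.16 (SE 0.29, adjusted p = 2.65e-08, limma) in WT and fell by 3.64 (adjusted p = 3.98e-09, limma) in BAF180-deficient cells, or 8.94-fold and 12.5-fold lower. Its other 2 probes were detected on 1 and 10 of the 24 arrays.

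Gadd45a fell by 1.46 in WT cells (adjusted p = 0.000495, limma), to 6.25, 5.91 and 5.83. Trp53inp1 fell by 1.29 (adjusted p = 3.83e-05, limma), from 9.47, 9.23 and 9.34 to 8.33, 8.31 and 7.51, and its probe at base 5108 fell too. Pmaip1 fell by 1.20 (adjusted p = 0.000171, limma), to 4.91, 5.06 and 4.79. These 3 genes also fell in BAF180-deficient cells, with differences of -1.12, -1.34 and -0.93. Phlda3, not detected before stimulation, was 6.01, 5.0 and 4.92 in WT stimulated Naive cells, at least 1.37-fold higher (adjusted p = 0.000713, limma). Its probe at base 911 was detected on 2 of these 3 arrays. The mean of that probe, 4.75, lay below the lowest detected signal of the resting arrays (4.86 on average), so it gave no lower bound for a rise.

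Cdkn1a did not pass with its brightest probe, although its 3 WT stimulated arrays (7.90, 7.43 and 7.11) all lay above the 3 resting ones. The difference was 1.12 (95% interval 0.14 to 2.10, adjusted p = 0.06, limma). With the replicate letter as a block the adjusted p was 0.00501, and without resting Naive WT replicate A it was 0.0305. The probe at base 1611, not detected in WT resting Naive cells, rose at least 1.4-fold (adjusted p = 0.00639, limma). In BAF180-deficient cells Cdkn1a differed by 0.43 (adjusted p = 0.5, limma). Ccng1 likewise passed with some probes only: 0.25 with the brightest (adjusted p = 0.426, limma), but 1.17 with the probe at base 1003 in WT cells (adjusted p = 0.00106, limma) and 0.88 in BAF180-deficient cells (adjusted p = 0.00977, limma).

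Trp53 was 8.35, 7.98 and 8.28 in WT stimulated Naive cells, and their mean differed from that of the resting arrays by 0.18 (adjusted p = 0.546, limma). Mdm2 fell by 0.65 in WT (adjusted p = 0.0307, limma) and fell by 0.69 in BAF180-deficient cells (adjusted p = 0.0229, limma), and stimulated replicate A of either genotype stood apart at 9.53 and 9.56. The WT call was lost when resting Naive replicate A or B or stimulated Naive replicate B or C was left out (adjusted p 0.0947 to 0.153). The BAF180-deficient call was lost without resting Naive replicate B or stimulated Naive replicate B or C (0.0688 to 0.147). The second detected Mdm2 probe, at base 2905, passed in none of the state comparisons.

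Markers of cells other than naive T cells moved with these comparisons. The 3 of 4 myeloid markers that could be tested (Itgam was not detected) summed to 775 to 3307 intensity units on the WT resting Naive arrays and 1058 to 1416 on the BAF180-deficient ones, against 61.7 to 89.1 in the 6 other groups. The 4 B cell markers summed to 329 to 929 on the resting Naive arrays and to 81.1 to 449 elsewhere. Both regulatory T cell markers, Foxp3 and Ikzf2, were called lower than in resting Naive cells in both comparisons and genotypes, with differences of -2.93 and -2.55 in WT resting Th2 cells and -1.36 and -0.99 in WT stimulated Naive cells. Their part in the differences from resting Naive cells was not tested, and in these bulk samples fewer cells of a type and less RNA per cell cannot be told apart.

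Stimulation of Th2 cells with PMA and ionomycin for 1.5 h was the last comparison of states. In WT cells 3 members fell (Bbc3, Phlda3 and Ccng1) and none rose, against 28.5% of all genes that passed (12.5% higher, 15.9% lower). In BAF180-deficient cells the same 3 fell and Trp53inp1 rose, against 27.0% of all genes (11.7% higher, 15.4% lower). The median difference in WT cells was -0.37 for the members and -0.012 for all genes. The resting Th2 arrays are shared with the comparison to Naive cells, so that a high level there enters both.

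Bbc3 was 5.45, 5.56 and 4.73 in WT stimulated Th2 cells, against 8.50, 8.55 and 7.66 at rest, and 5.45, 4.78 and 5.08 against 8.08, 8.10 and 7.42 in BAF180-deficient cells. It fell by 2.99 (SE 0.29, adjusted p = 1.33e-07, limma) in WT cells, 7.96-fold, and fell by 2.76 in BAF180-deficient cells (adjusted p = 4.84e-07, limma). The gene was thus low after stimulation of both Naive and Th2 cells, and its arrays in the 2 stimulated states overlapped in each genotype.

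Phlda3 fell from 7.57, 7.37 and 7.64 to 5.29, 5.20 and 4.92 in WT cells, a difference of -2.39 (adjusted p = 6.29e-08, limma), or 5.24-fold. The BAF180-deficient arrays fell from 8.11, 8.13 and 8.08 to 5.98, 5.57 and 5.41, a difference of -2.45 (adjusted p = 6.26e-08, limma). Ccng1 went from 10.01, 9.68 and 9.64 to 8.13, 7.96 and 8.15 in WT cells, a difference of -1.70 (adjusted p = 1.08e-05, limma). After stimulation this brightest Ccng1 probe lay in the range of the Naive cells. The WT arrays of its other probes stayed above all WT resting Naive arrays. They read 7.91, 8.12 and 8.09 against at most 7.66 at base 822, and 7.15, 7.31 and 7.49 against at most 6.07 at base 1003. Phlda3 stayed above its undetected level in resting Naive cells.

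Cdkn1a, which stood highest in the same resting Th2 cells, did not pass. Its WT level was 8.83, 9.37 and 8.79 after stimulation, overlapping the resting arrays, with a difference of -0.37 (adjusted p = 0.675, limma). In BAF180-deficient cells it was 9.04, 9.0 and 8.92, below all 3 resting arrays, and the difference of -1.04 had an adjusted p of 0.117 (limma), or 0.014 with the replicate letter as a block. The test of whether this response differed between the genotypes gave -0.67 (95% interval -2.06 to 0.71).

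Trp53inp1 rose in BAF180-deficient cells by 0.62 (adjusted p = 0.0319, limma), from 8.98, 9.45 and 9.02 to 9.60, 10.14 and 9.58. The call was lost without resting Th2 replicate A or C or stimulated Th2 replicate B (adjusted p 0.101 to 0.192). Its probe at base 5108 rose in both genotypes, by 0.76 in WT (adjusted p = 0.0129, limma) and by 1.45 in BAF180-deficient cells (adjusted p = 4.61e-05, limma). Trp53 was 7.86, 7.66 and 7.30 in WT stimulated Th2 cells, a difference of -0.53 (adjusted p = 0.0741, limma; 0.0355 without resting Th2 WT replicate A). Pmaip1, Gadd45a and Mdm2 did not pass in either genotype.

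Over the 4 states the members thus differed in their order. Cdkn1a ran from resting Th2 through stimulated Th2 and stimulated Naive to resting Naive cells in both genotypes, where the neighbours that overlapped were the 2 Th2 states in WT cells and the 2 Naive states in BAF180-deficient cells. Bbc3 ran from resting Naive through resting Th2 and stimulated Naive to stimulated Th2 cells, and only the last 2 overlapped. Phlda3 and Ccng1 were highest in resting Th2 cells without overlap with any other state. Trp53 spanned 0.60 log2 units over the 4 WT means and 0.70 over the BAF180-deficient ones. Phlda3, by comparison, spanned 3.24 and 3.76. Every neighbour in the Trp53 order overlapped, but the ends of that order did not. In WT cells Trp53 lay at 7.98 to 8.35 in stimulated Naive and 7.30 to 7.86 in stimulated Th2 cells. In BAF180-deficient cells it lay at 8.21 to 8.99 and 7.44 to 8.11.

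The genes whose 8 group means were most like those of Cdkn1a, by the root mean square difference after centring each gene, were Fkbp1a (0.27 log2 units), Prdx4 (0.35), Aldoc (0.38), Mcf2l (0.39) and Plp2 (0.39). Of the members, Phlda3 came 111th and Ccng1 471st among the 10417 other genes. Bbc3 was among the least alike, in place 10277. This describes 8 means from the same 24 arrays.

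BAF180-deficient cells were then compared with WT cells within each state. A gene was called by the study's 4 criteria: a mean signal above 0, a p below 0.05, a false discovery rate below 0.3 and a Z-ratio beyond 1.5 in size. The Z-ratio scales each difference by the SD that all differences of the comparison have. The p and false discovery rate were those of limma, not of the study's software. By these no member was called with its brightest probe in any of the 4 states (limma), against 0.758% of all genes in resting Naive, 0.115% in stimulated Naive, 0.106% in resting Th2 and 0.0960% in stimulated Th2 cells. The study's own analysis of these arrays, with its own normalization and p-values, called more genes. In Naive cells it listed Cdkn1a among the genes repressed by BAF180 and Gadd45a among those activated. The study also named Cdkn1a a repression target from RT-PCR of stimulated naive and restimulated Th2 cells. For this gene it gave no RT-PCR p below 0.05. It further reported PBAF binding at the p21 locus, without showing the data. At an unadjusted p below 0.05 the members counted 1, 0, 1 and 1: Cdkn1a in resting Naive cells and Phlda3 in both Th2 states. The shares of all genes at that threshold were 7.20%, 2.31%, 3.58% and 2.87%. The medians of the 9 differences were 0.042, -0.021, 0.13 and -0.012, against 0.0029, 0.0055, 0.0026 and 0.0023 over all genes.

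**Figure D3:**
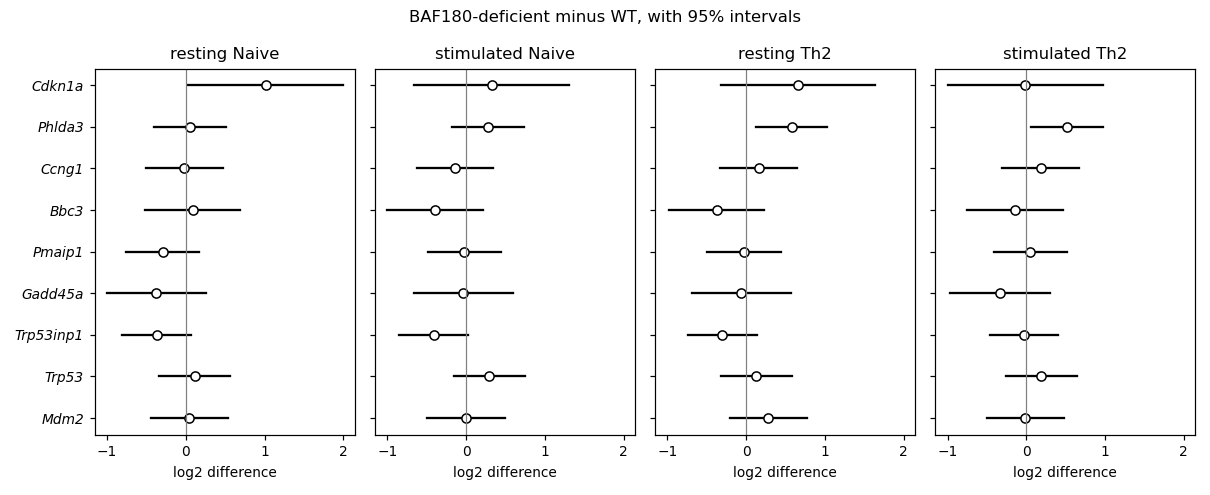
BAF180-deficient minus WT difference in log2 intensity (x axis) of the 9 genes in each cell state, with 95% confidence intervals from limma; all symbols are open because no gene met the 4 criteria. The intervals of Cdkn1a in resting Naive cells and of Phlda3 in both Th2 states lay above 0 before adjustment.

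Cdkn1a was the member with the largest difference between the genotypes. In resting Naive cells its brightest probe read 7.02, 6.75 and 5.30 in WT and 8.11, 8.04 and 5.96 in BAF180-deficient cells, so the deficient array was the higher one in each of the 3 letter pairs, by 1.09, 1.29 and 0.66. Because replicate C stood low in both genotypes, the groups overlapped. The difference was 1.01 (SE 0.47, 95% interval 0.03 to 1.99, adjusted p = 0.711, limma). Without resting Naive BAF180-deficient replicate C it was 1.72 (adjusted p = 0.121, limma) and the gene was called. That fit kept the low WT replicate C, and of the 6 fits that left out 1 array of this state it was the only 1 that called the gene.

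The second probe of Cdkn1a, at base 1611, read 4.47, 4.55 and 4.26 in WT resting Naive cells, where it was not detected, and 5.44, 5.85 and 4.90 in BAF180-deficient cells. The groups did not overlap, and this probe met the 4 criteria (adjusted p = 0.252, limma), at least 1.45-fold higher. The probe at base 1428 differed by 0.38 and was not called. A fit that takes the WT and the BAF180-deficient array of one letter and state as a pair, chosen after the data were seen, called the brightest probe in resting Naive cells (adjusted p = 0.0235, limma), where it called 4.42% of all genes.

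With the brightest probe, replicate C held the lowest Cdkn1a value in all 8 groups, though by only 0.05 in WT and 0.07 in BAF180-deficient stimulated Th2 cells. With the probe at base 1611 another letter was lowest in some groups, such as stimulated Naive cells of both genotypes. In resting Naive cells replicate C of the brightest probe lay 1.45 below the lower of A and B in WT and 2.09 below it in BAF180-deficient cells. The same C arrays had the highest summed B cell markers, 764 and 929 against 329 to 367 on the other 4 resting Naive arrays, and the WT array the highest myeloid sum, 3307. Markers of other T cell types also differed in this state: both regulatory T cell markers summed to 512 to 726 in WT and 732 to 1049 in BAF180-deficient cells, and the 3 memory markers to 345 to 388 and 430 to 613. Of the memory markers S100a6 was higher by 1.09 and met the 4 criteria, whereas Cd44 differed by 0.12 and S100a4 by 0.11. Ikzf2 differed by 0.76 and Foxp3 by 0.44, neither called. Their part in the Cdkn1a values was not tested.

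**Figure D4:**
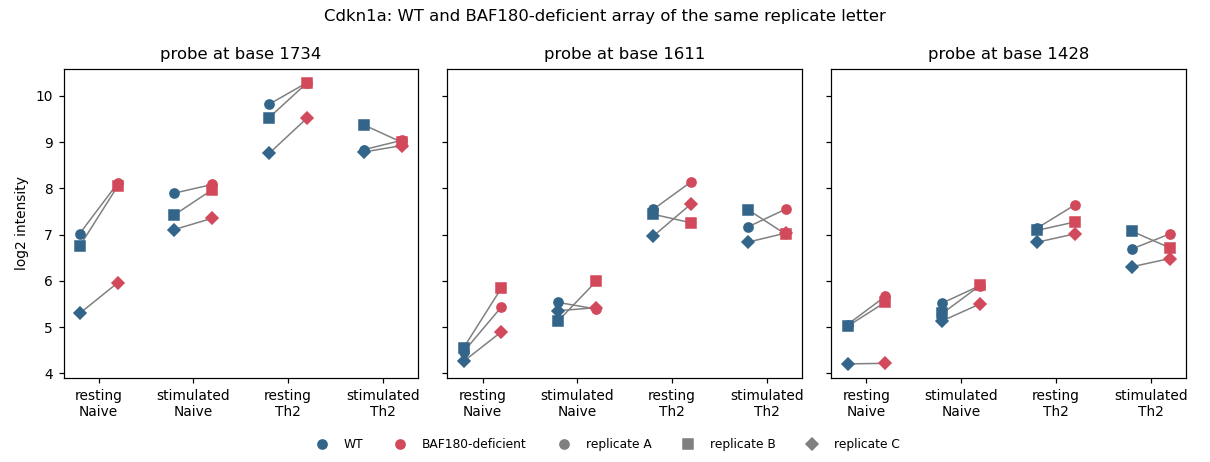
Cdkn1a level (log2 intensity, y axis) on the 24 arrays for each of its 3 probes, named by their first base in the transcript, by cell state (x axis); a line joins the WT (blue) and BAF180-deficient (red) array of one replicate letter. The deficient array was higher in 11 of 12 pairs with the probes at bases 1734 and 1428, and in 9 of 12 with that at base 1611. The probe at base 1611 was not detected in WT resting Naive cells.

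In the other states the Cdkn1a difference was smaller. In resting Th2 cells it was 0.66 (95% interval -0.32 to 1.64, adjusted p = 1, limma), from 9.82, 9.53 and 8.75 in WT to 10.28, 10.28 and 9.52 in deficient cells, higher in each pair by 0.47, 0.75 and 0.76. The paired fit called it there (adjusted p = 0.168, limma), where that fit called 1.13% of all genes. In the same cells the probe at base 1611 differed by 0.59, -0.18 and 0.70 in the pairs, and that at base 1428 by 0.50, 0.18 and 0.18. With the brightest probe the difference was 0.33 in stimulated Naive and -0.01 in stimulated Th2 cells, with pairs in both directions in the latter. The tests of a change in the genotype difference between states gave intervals that include 0 for all 9 members, and for Cdkn1a they were wide, -2.07 to 0.70 on stimulation of Naive cells.

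Phlda3 was the other member with an unadjusted p below 0.05. In resting Th2 cells it read 7.57, 7.37 and 7.64 in WT and 8.11, 8.13 and 8.08 in BAF180-deficient cells, without overlap. The difference of 0.58 (SE 0.22, 95% interval 0.12 to 1.03) had an adjusted p of 1 (limma). The paired fit called it (adjusted p = 0.229), as did Z-score normalization, with 0.72 (adjusted p = 0.273). In stimulated Th2 cells the difference was 0.52 (adjusted p = 1, limma), with 5.29, 5.20 and 4.92 against 5.98, 5.57 and 5.41, again without overlap. The groups of the Phlda3 probe at base 911 overlapped in both Th2 states. In resting Th2 cells that probe read 6.23, 6.72 and 7.54 in WT and 6.71, 6.91 and 7.91 in BAF180-deficient cells. Over the 4 states 11 of 12 pairs were higher in deficient cells with either Phlda3 probe, although the gene was not detected in resting Naive cells.

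With the brightest probes, Phlda3 was the only member whose groups did not overlap in resting Th2 cells, where 10.3% of all genes did not. It was also the only such member in stimulated Th2 cells, where 7.47% of all genes did not overlap. In resting Naive cells these were Gadd45a and Trp53inp1 (7.99% of all genes), and in stimulated Naive cells there was none (6.59%). The 2 regulatory T cell markers summed to 80.4 to 98.7 in WT and 119 to 193 in deficient resting Th2 cells, with differences of 0.996 for Foxp3 and 0.10 for Ikzf2. The CD8 marker Cd8b1 (Cd8a was not detected) lay at 203 to 340 in WT and 88.1 to 262 in deficient cells, a difference of -0.95. None of these markers was called, and their part was not tested.

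Gadd45a read 7.47, 7.32 and 7.58 in WT and 6.87, 7.14 and 7.23 in deficient resting Naive cells, a difference of -0.38 (95% interval -1.01 to 0.25, adjusted p = 0.96, limma). Trp53inp1 read 9.47, 9.23 and 9.34 against 8.89, 9.10 and 8.94, a difference of -0.37 (adjusted p = 0.831, limma), but its probe at base 5108 was higher in the deficient array in 2 of the 3 pairs. Trp53 itself was higher in the deficient array in 10 of 12 pairs, with differences of 0.11, 0.30, 0.13 and 0.19 in the 4 states, none with an unadjusted p below 0.05. Bbc3 and Trp53inp1 were each lower in 9 of 12 pairs and Gadd45a in 8. Mdm2, Ccng1 and Pmaip1 were higher in 7, 8 and 6 of 12. All these tallies count 3 replicate letters in 4 states, so the 12 pairs are not independent.

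No member passed the test of a change in its genotype difference between states, whether the comparison was of stimulated with resting Naive, stimulated with resting Th2, or resting Th2 with resting Naive cells (limma), against 0.00960%, 0% and 0.00960% of all genes. At an unadjusted p below 0.05 it was 0 of 9 in each, against 2.27%, 1.79% and 2.86% of all genes.

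Further lists of related genes were read beside the members: 20 regulators of p53 (19 measured, without Atr), 30 other p53 target genes (27 detected, without Ak1, Btg2 and Perp) and 10 relatives of the members (7 detected, without Phlda2, Trp63 and Trp73). None of their genes was called between the genotypes in any state. The study's own analysis listed Cdkn2a among genes that appeared repressed by BAF180 in Th2 cells, and Daxx among those that appeared activated. In resting Th2 cells the mean Cdkn2a level was 5.43 in WT and 6.26 in BAF180-deficient cells. It was thus higher without BAF180 in that state, though not called. Between the states each list had genes that rose and genes that fell in all 3 WT comparisons.

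Among the 27 other p53 targets tested 10 rose and 5 fell from resting Naive to resting Th2 WT cells, with a median of 0.14. Of all genes 17.9% rose and 17.6% fell. Gtse1, a G2 and S phase protein that binds p53, rose by 2.87, the ribosomal protein-like gene Rps27l by 1.99 and the translesion polymerase gene Polk by 1.77. The epoxide hydrolase gene Ephx1 fell by 3.05 and the sestrin gene Sesn1 fell by 1.72, and the stress cytokine gene Gdf15, undetected in Th2 cells, was at least 2.64-fold lower. Regulators of p53 counted 4 higher and 2 lower, and relatives 1 higher and 4 lower.

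On stimulation of WT Naive cells 5 targets rose and 6 fell (median 0.041), 3 regulators rose and 1 fell, and 1 relative rose and 3 fell. Of all genes 23.3% rose and 21.9% fell. Rps27l rose by 2.33, Gtse1 by 1.74 and Pidd1, which encodes a death domain protein, by 1.54. Cdkn1b, which encodes the p21 relative p27, fell by 3.05, Ephx1 fell by 2.66 and Sesn1 fell by 2.60. Cdkn1b thus fell in the comparison in which the brightest Cdkn1a probe differed by 1.12 in the other direction.

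On stimulation of WT Th2 cells 4 targets rose and 11 fell, with a median of -0.41 against -0.012 over all genes, and 1 regulator rose and 5 fell. Of the relatives 2 rose and 1 fell, and of all genes 12.5% rose and 15.9% fell. Phlda1, a relative of Phlda3, rose by 3.79, and Gadd45b, a relative of Gadd45a, by 2.58, whereas Phlda3 fell and Gadd45a did not pass. Plk3, a polo-like kinase gene, rose by 2.51. Apaf1, which encodes the core of the apoptosome, fell by 2.17, Cdkn1b fell by 2.08 and Gtse1 fell by 1.83.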

How the data were processed

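Total RNA of 24 samples was hybridised to Illumina mouse BeadChips. Per the labels the scans were read in GenomeStudio 1.6.0, and the deposited table holds 1 non-normalized average signal intensity and 1 detection p-value per probe and array, as the authors exported them. Background correction and quantile normalization over all 24 arrays were done with neqc (limma 3.58.1, R 4.3.3, offset 16), which uses the detection p-values. A probe was kept if its detection p-value was 0.02 or less on 1 array or more (14246 of 25697, 10418 genes, each by its brightest kept probe). One limma model with 8 group means (16 residual degrees of freedom) was fitted to the log2 intensities, and p-values were adjusted over all kept probes by the Benjamini-Hochberg method. Calls between genotypes needed the 4 criteria of the study's methods, with limma's p and false discovery rate in place of those of the authors' software. Calls between states needed an adjusted p below 0.05. Lists and sums of markers used normalized intensities with the offset included.

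Genes were named through the Entrez identifier for 16938 probes, the accession for 7420, a current symbol for 465, a synonym for 553 and the array's own symbol for the rest. A fold against a group in which a probe was not detected on any array is a lower bound: the bright group's mean against, per array, the higher of the probe's own signal and the lowest signal among detected probes. The number of arrays limits the precision, and no depth is involved. Replicate correlations were between 0.949 and 0.989. The labels do not say that arrays of a group are separate cultures or animals, whereas the study's text names 3 pairs of mice. If they were not separate, the p-values measure only technical spread.

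The replicate letters were read as pairs, because of that statement and because the deviations of arrays of one letter from their group means correlated over the 4 states (A 0.301, B 0.136, C 0.516). In the states taken singly, 2 of 12 such correlations were at or below 0.1. Alternatives were the Z-score normalization of the study's methods (log10 intensities centred and scaled per array, then rescaled to the spread of the log2 values), no background correction, normalization within a state, no detection filter, other rules for several probes of a gene, the replicate block, only the arrays compared, and leaving out each replicate. The steps were tested on simulated data. The 9 members, the gene lists and the marker lists were chosen with earlier results of these data known. The members are all named, and of the lists of p53 regulators, p53 targets and relatives the genes called between genotypes and the 3 called genes with the largest difference in each direction of each WT state comparison. Promoter sequences are RefSeq's.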

Additional observations from a re-analysis of the deposited data

How the results depend on the processing

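The counts of members called between genotypes were 0 in all 4 states and moved as follows. In resting Naive cells the count was 1 (Cdkn1a) when any detected probe could call a gene, 1 (Cdkn1a) with the replicate block within a cell state, and 0 to 1 when 1 replicate was left out, the 1 being Cdkn1a without the BAF180-deficient replicate C. In resting Th2 cells it was 1 (Phlda3) after Z-score normalization and 2 (Cdkn1a and Phlda3) with the replicate block within a cell state. That block within a state called 4.42% of all genes in resting Naive and 1.13% in resting Th2 cells. With the replicate letter as a block over all arrays it was 0 in all 4 states. Between states that replicate block called 7, 3 and 7 members in WT cells (stimulated against resting Naive, stimulated against resting Th2, resting Th2 against resting Naive), against 6, 3 and 6 without it, and 6, 5 and 6 in BAF180-deficient cells, against 6, 4 and 6. The calls it added were Cdkn1a on stimulation of WT Naive cells, Mdm2 in WT resting Th2 cells and Cdkn1a on stimulation of BAF180-deficient Th2 cells. For the other alternative settings the share of all genes called was not counted, so a higher count there may not be particular to the members.

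The 31 member differences called between states kept their sign in all 372 values under the alternatives, and 350 stayed past the threshold. The 22 that did not belonged to Mdm2 on stimulation of Naive cells in both genotypes, Bbc3 in WT resting Th2 cells, Pmaip1 on stimulation of BAF180-deficient Naive cells and Trp53inp1 on stimulation of BAF180-deficient Th2 cells. Of 276 values of differences not called, 15 passed. Between genotypes 5 of 504 values passed, and 47 changed sign with neither value called. The cause of these changes was not tested. Weak probes limit Phlda3 and the second Cdkn1a probe in resting Naive cells, where the difference is only a bound.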
